A study of Mus musculus with 6 samples.

Results

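The glutathione transferases described here are 10 genes of the mouse families that join glutathione to electrophiles: Gstz1 and 9 relatives from other classes. Each was represented by every probe set that carried its symbol and no other. This gave 10 probe sets, 1 a gene, out of 19308 genes measured by 20746 probe sets with 1 symbol. Gstz1 was chosen by its measured log2 difference between the 2 kinds of cell described next, and its relatives were added with their differences known, so all differences between the groups are given for the members as descriptions, with no test of their own.

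Affymetrix arrays, 6 in number, measured RNA of iPS cells (induced pluripotent stem cells, 3 arrays) and of ntES cells (embryonic stem cells made by nuclear transfer, 3 arrays). Cells of both groups came from tail tip fibroblasts of generation 3 (G3) Terc-/- mice, which lack the RNA template of telomerase, and both were grown on mitomycin C-treated mouse embryonic fibroblasts. Nuclear transfer places the nucleus of a body cell in an enucleated egg, and iPS cells arise from body cells given reprogramming factors. No array of Terc-positive cells or of the starting fibroblasts was analysed here. The series calls the 3 arrays of a group biological repeats of its cell line. The p-values therefore measure spread among such repeats, and where a group is 1 line, effects of line and of method cannot be told apart.

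The deposited values were on a log2 scale, from 3.6 to 13.7 over 23344 probe sets. Array medians lay between 7.61 and 7.70, whereas the SD over probe sets was lowest for ntES replicate 1 (1.51) and highest for ntES replicate 3 (1.74). Of all probe sets, 2643 passed an adjusted p of 0.05 between the groups by limma, or 11.3%, 1212 of them higher and 1431 lower in ntES cells. These counts were 2259 and 2785 without ntES replicate 3, 469 and 545 without ntES replicate 2, 572 and 562 without iPS replicate 1, 495 and 547 without iPS replicate 2, and 737 and 1219 without iPS replicate 3. The pluripotency factors Pou5f1, Sox2 and Nanog read between 11.1 and 12.4 on all 6 arrays, and none of the 3 passed the test. Of 15 pluripotency markers 4 fell in ntES cells, with a median difference of -0.17. Of 24 measured fibroblast and feeder markers, 9 rose and 1 fell in ntES cells, and their mean level ran from 9.42 to 9.71 on the iPS arrays and from 9.69 to 9.96 on the ntES arrays. Of 16 primitive endoderm markers 6 rose, with a mean level of 8.01 to 8.06 in iPS and 8.21 to 8.24 in ntES cells. In these bulk samples, fewer cells of a type and less RNA per cell cannot be told apart.

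Cytosolic glutathione transferases are soluble dimers sorted into classes by sequence, such as alpha, mu, theta, omega and zeta. The kappa enzyme belongs to mitochondria and peroxisomes, and the microsomal enzymes are membrane proteins of a separate fold. Most of them bind glutathione and add its sulphur to a reactive carbon, which makes the product soluble and ready for export. Gstz1 differs in its main duty: as maleylacetoacetate isomerase it uses glutathione to turn maleylacetoacetate into fumarylacetoacetate, the step before the last in tyrosine breakdown. Several transferase genes are known targets of NRF2, a transcription factor that binds antioxidant response elements.

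Gstz1 read 8.93, 9.07 and 8.96 on the 3 iPS arrays and 7.39, 7.47 and 7.70 on the 3 ntES arrays (log2). Every iPS array was above every ntES array, and a gap of 1.23 separated the lowest iPS from the highest ntES value. The means were 8.99 ± 0.07 in iPS and 7.52 ± 0.16 in ntES cells (log2, SD, n = 3 each), a difference of -1.47 ± 0.10 (ntES minus iPS, log2, SE), or 2.76-fold less signal in ntES cells. The ntES mean lay below 7.66, the median over all probe sets, where background can make up more of the signal. Of the 23344 probe sets, 7 lay at least as far below 0, Gstz1 included. These are the values for which the gene was chosen.

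The start of Gstz1 is shown because it lies close to the start of a neighbour that also differed between the groups, Pomt2. The RefSeq promoter table for GRCm38.p6 lists 2 starts for Gstz1 on the plus strand of chromosome 12. The 250 bases before the first of them are chr12:87146915-87147164, with the CCAAT box that the search found in capitals.
Gstz1: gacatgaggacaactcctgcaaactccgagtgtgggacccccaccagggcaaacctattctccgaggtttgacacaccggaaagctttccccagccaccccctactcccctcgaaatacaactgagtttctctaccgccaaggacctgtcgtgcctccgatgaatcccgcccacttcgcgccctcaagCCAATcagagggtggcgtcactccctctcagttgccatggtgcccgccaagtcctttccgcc
The box ended 57 bases before the start. The letters CCAAT, sought on both strands, occur in 37.4% of the 32851 promoter windows of equal length in that table. They also occur in 6 of the 11 windows of the 8 members it holds, and these 6 belong to 4 genes (Gstz1, Gstk1, Gstm1 and Gstt1). Each window holds 250 bases before its start and a shorter stretch past it, and was searched whole. Pomt2, read from the minus strand, starts 737 bases downstream of this Gstz1 start and reads back across it, so these genes overlap on opposite strands. Whether their probe sets tell the overlapping transcripts apart was not checked.

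The antioxidant response element was sought as well, because it is the site through which NRF2 is known to act on transferase genes. Its core was written TGACNNNGC and sought on both strands of the same windows. It was found in 2 of the 11 windows of the 8 members matched, 1 each of Gstm5 and Mgst1, and in 12.4% of all windows. Neither promoter of Gstz1 held these letters, which says nothing about the factor itself. The 2 matches are shown in capitals with their surroundings, at chr3:107895792-107895840 and chr6:138140451-138140499 of GRCm38.p6, each on the plus strand.
Gstm5: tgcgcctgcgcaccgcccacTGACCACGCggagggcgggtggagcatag
Mgst1: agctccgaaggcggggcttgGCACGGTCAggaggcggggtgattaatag
The Gstm5 match reads along the gene and the Mgst1 match on the opposite strand. Neither gene passed the adjusted p in the comparison, as described below for each class.

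Among the 10 members, Gstz1 alone was called at an adjusted p under 0.05, lower in ntES cells, beside 11.3% of all probe sets called in either direction (5.19% higher, 6.13% lower). None of the other 9 was called by limma, and 3 of these 9, Gstm1, Gstt2 and Mgst3, had an unadjusted p under 0.05, beside 24.6% of all probe sets. In the same 3 genes, and in Gstz1, the values of the groups did not overlap, as in 26.5% of all probe sets (13.6% higher and 12.9% lower in ntES cells). Of these 4 members, Gstm1 and Mgst3 were higher and Gstz1 and Gstt2 lower. Since the list was drawn up with this contrast known, these counts are descriptions. Differences of the 9 relatives ran from -0.30 to 0.36 (log2), with 3 above 0 and 6 below, and a median of -0.06, against 0.04 over all probe sets.

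**Figure D1:**
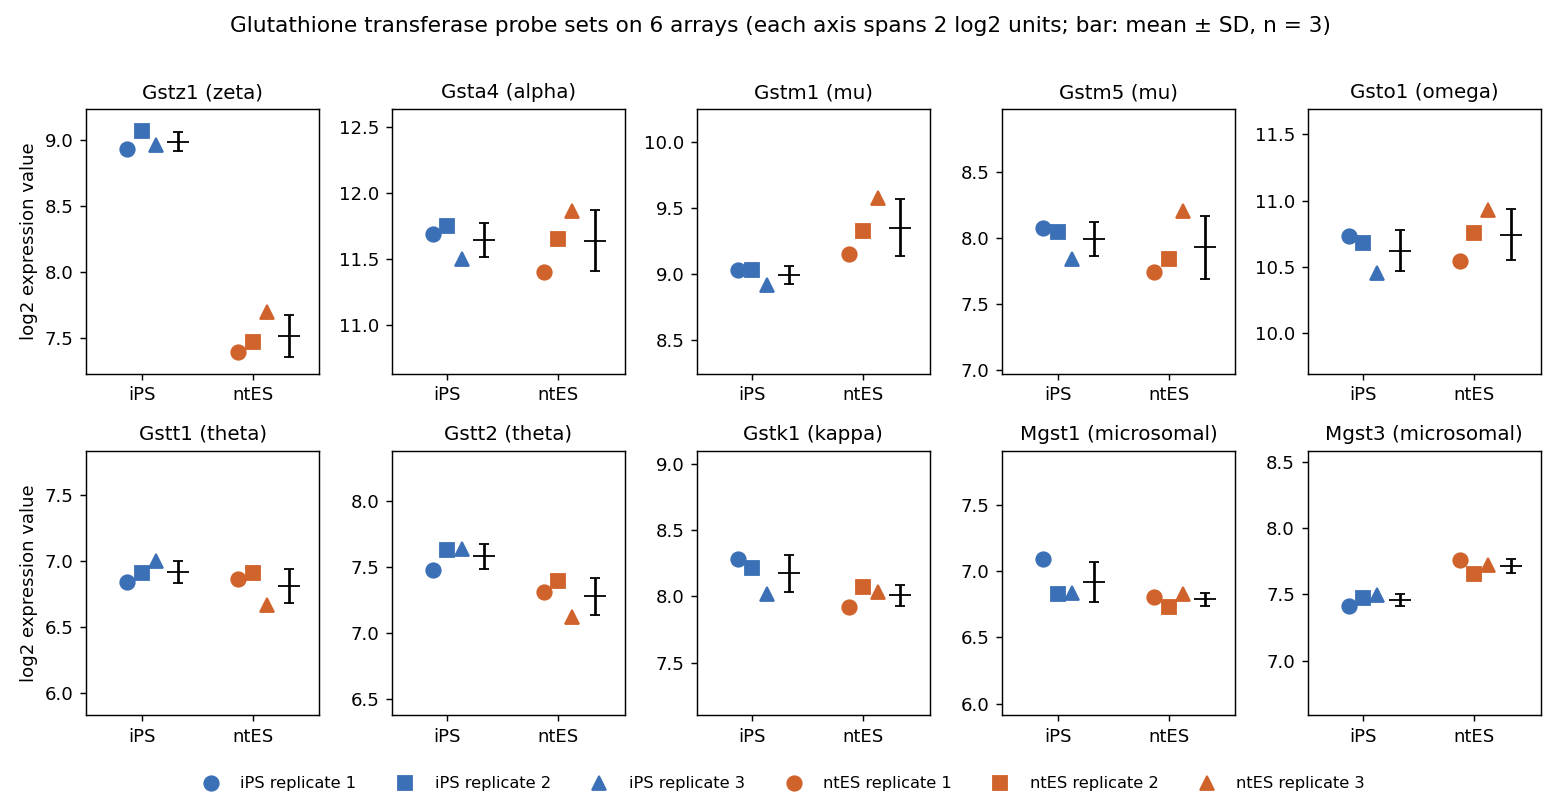
Log2 expression values of the 10 glutathione transferase probe sets on each array. The horizontal axis gives the group and the vertical axis the log2 value, over 2 log2 units in every panel. Blue points are iPS and orange points ntES replicates, and black bars show mean ± SD (n = 3). Gstz1 has iPS values from 8.93 to 9.07 and ntES values from 7.39 to 7.70, and in the other panels the groups lie within 0.36 of each other on average.

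Of the mu class, whose enzymes conjugate epoxides and other electrophiles, Gstm1 read 9.03, 9.03 and 8.92 on the iPS arrays and 9.15, 9.32 and 9.57 on the ntES arrays. All ntES values were above all iPS values, by 0.12 at the closest. The difference was 0.36 ± 0.11 (log2, SE; 95% interval 0.11 to 0.60), the largest in size among the 9 relatives, and it was called without ntES replicate 1 (0.46). Fibroblast and feeder markers were higher in the ntES group too, and their part in this difference was not tested. Gstm5, a mu gene best known from brain and testis, read 8.08, 8.04 and 7.84 in iPS and 7.74, 7.84 and 8.20 in ntES cells. Its groups overlapped, with a difference of -0.06 (95% interval -0.33 to 0.21). Probe sets of the mu genes may bind each other's transcripts, so values of single mu genes are uncertain.

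Gsta4, the alpha enzyme that disposes of hydroxynonenal from oxidised lipids, read 11.69, 11.75 and 11.50 on the iPS and 11.40, 11.65 and 11.87 on the ntES arrays. The lowest and the highest value both belonged to ntES arrays. The group means, 11.65 ± 0.13 and 11.64 ± 0.23 (SD, n = 3 each), differed by -0.01 (95% interval -0.27 to 0.26). Gsto1, an omega enzyme that reduces dehydroascorbate and removes glutathione from proteins, read 10.74, 10.68 and 10.45 in iPS and 10.54, 10.75 and 10.93 in ntES cells. Its difference was 0.12 (95% interval -0.14 to 0.38), within the spread of the groups.

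The theta class acts on small halogenated compounds and sulphate esters, and its 2 members here lie close together on chromosome 10. Gstt2 read 7.47, 7.63 and 7.64 on the iPS and 7.31, 7.40 and 7.12 on the ntES arrays. The groups were apart by 0.08 at the closest, with the ntES arrays lower by -0.30 ± 0.09 (log2, SE; 95% interval -0.51 to -0.09). Gstt1 read 6.84, 6.91 and 7.00 in iPS and 6.87, 6.91 and 6.66 in ntES cells. Its groups overlapped, and the difference was -0.10 (95% interval -0.31 to 0.10). Gstt3, which lies beside Gstt1, and Gstt4, between Gstt1 and Gstt2, differed by 0.03 and 0.06 and did not pass the test.

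Gstk1, the kappa enzyme of mitochondria and peroxisomes, read 8.28, 8.22 and 8.02 in iPS and 7.92, 8.07 and 8.03 in ntES cells. The highest ntES value exceeded the lowest iPS value by 0.06, and the difference was -0.16 (95% interval -0.37 to 0.04). Of the membrane enzymes, Mgst3, a peroxidase of lipid hydroperoxides, read 7.41, 7.47 and 7.50 on the iPS and 7.76, 7.66 and 7.72 on the ntES arrays. Every ntES array was above every iPS array, by 0.16 at the closest, with a difference of 0.25 ± 0.08 (log2, SE; 95% interval 0.08 to 0.42), and it was called without ntES replicate 3 (0.25). Mgst1, which protects membranes of the endoplasmic reticulum and mitochondria, read 7.09, 6.83 and 6.83 in iPS and 6.80, 6.73 and 6.83 in ntES cells. Its groups touched, with a difference of -0.13 (95% interval -0.34 to 0.08). Gstt1, Gstt2, Mgst1 and Mgst3 had means over the 6 arrays below 7.66, the median over all probe sets. Background can make up more of the signal there. The mean of Gstz1 over the 6 arrays was above that median, but its mean in ntES cells, 7.52, was below it.

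ntES replicate 3 had the widest spread over all probe sets (SD 1.74), and iPS replicate 3 and ntES replicate 1 had the narrowest (1.59 and 1.51). Quantile normalization gives all arrays one distribution. After it the SE of Gsta4 went from 0.12 to 0.04, that of Gsto1 from 0.12 to 0.04 and that of Gstm1 from 0.11 to 0.04. That of Gstz1 was 0.10 before and 0.09 after, that of Gstm5 0.12 and 0.10, and that of Mgst1 rose from 0.093 to 0.099. On the quantile-normalized values 3 members were called higher in ntES cells, Gstm1 by 0.41, Mgst3 by 0.19 and Gsto1 by 0.15. Another 3 were called lower, Gstz1 by -1.51, Gstt2 by -0.38 and Gstt1 by -0.20. In all, 30.1% of probe sets were called on those values.

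**Figure D2:**
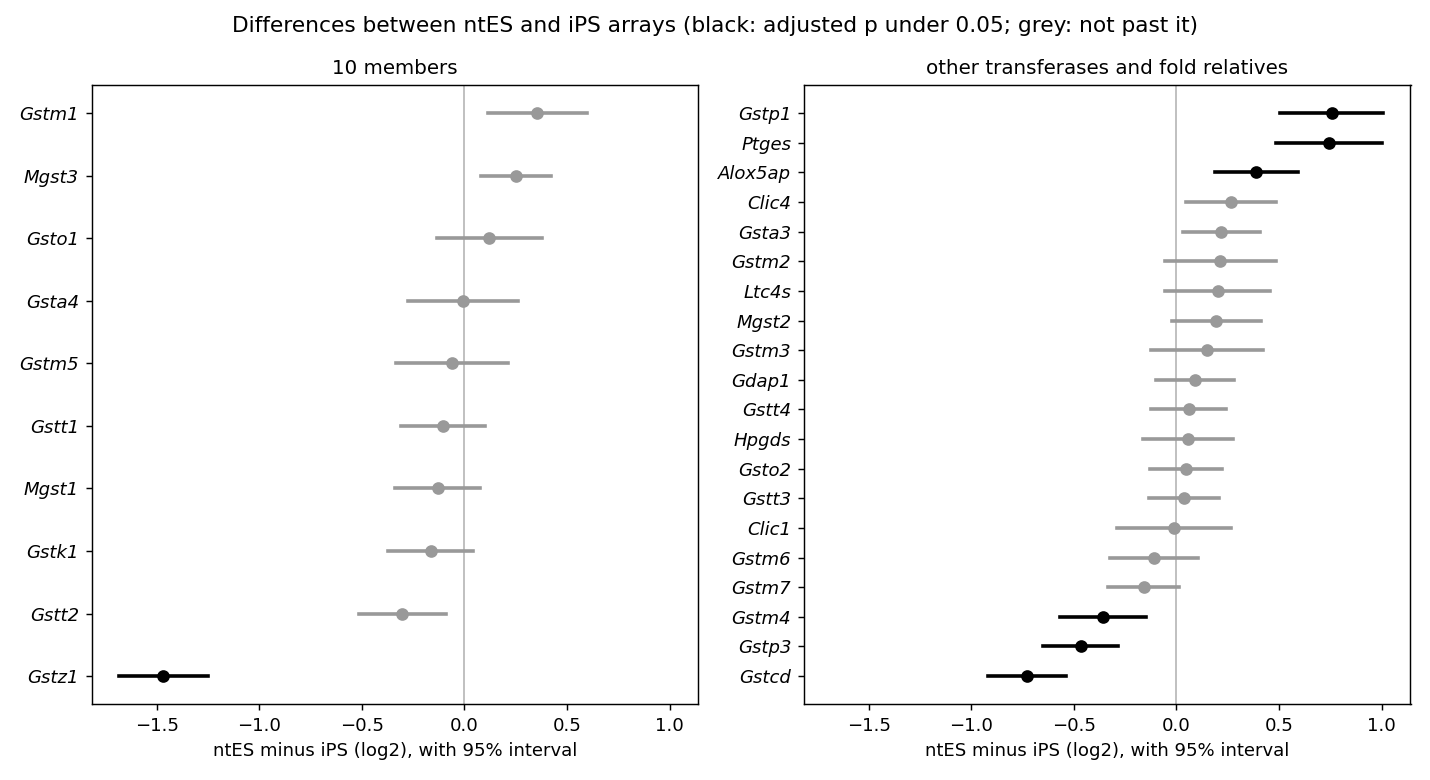
Differences between ntES and iPS arrays (log2, horizontal axis) with 95% intervals, for the 10 members on the left and 20 other transferases and fold relatives on the right. Black marks adjusted p under 0.05 by limma and grey the rest. Gstz1 lies at -1.47, outside the range of -0.73 (Gstcd) to 0.76 (Gstp1) taken by the genes on the right.

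The other glutathione transferases and proteins of related fold were counted from a list of 25 genes, of which 20 were measured. Of these, 3 rose and 3 fell in ntES cells, beside 5.25% of all genes called higher and 6.16% called lower, and the list's median difference was 0.07 against 0.04 over all genes. Gstp1, the pi enzyme and a main transferase of many dividing cells, rose from a mean of 10.31 ± 0.22 in iPS cells to 11.07 ± 0.09 in ntES cells (log2, SD, n = 3 each; adjusted p = 0.00213, limma). Ptges, the microsomal synthase of prostaglandin E, rose by 0.74 (adjusted p = 0.00272). How far the fibroblast and feeder markers, also higher in ntES cells, bear on the rises of Gstp1 and Ptges was not tested. Gstcd, which carries a transferase-like C-terminal domain, fell by 0.73 (adjusted p = 0.000573). The other 3 were named after their values were seen: Alox5ap, which presents arachidonic acid to lipoxygenase, rose by 0.39, while Gstp3 and Gstm4 fell by 0.47 and 0.36. Gstp1 and Gstp3 are close copies, and whether their probe sets tell them apart was not checked. The list had 5 rises without ntES replicate 3 and 1 fall without ntES replicate 2. Leaving out ntES replicate 2 also ended the calls of Alox5ap, Gstp3 and Gstm4 (adjusted p = 0.0813, 0.0529 and 0.156), and neither Alox5ap nor Gstm4 passed without iPS replicate 1 (0.118 and 0.163), iPS replicate 2 (0.113 and 0.127) or with the replicate block (0.0503 and 0.0815). Gstm4 also did not pass without iPS replicate 3 (0.0686) or ntES replicate 1 (0.0634).

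The mu genes lie side by side on chromosome 3, which let a member be set beside its direct neighbours. Gstm4, next to Gstm1, read 9.34, 9.24 and 9.22 in iPS and 8.76, 8.90 and 9.06 in ntES cells, with every ntES array lower. Gstm1 lay at 0.36 and Gstm4 at -0.36, and the genes on the other side, Gstm2, Gstm3, Gstm6 and Gstm7, lay at 0.21, 0.15, -0.11 and -0.16 without passing the test. Both signs occurred in the mu cluster. Gsto2, beside Gsto1 on chromosome 19, differed by 0.05 and did not pass.

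Around Gstz1 most genes were lower in ntES cells. Of the 20 measured genes nearest to it in gene order, 10 on each side, 17 differed by less than 0, against 40.1% of all genes, and the median was -0.39 against 0.04. Among these 20, 11 fell and 2 rose, beside 6.16% of all genes called lower and 5.25% called higher. For the other 9 members the same windows had medians between -0.07 and 0.10, with 0 to 5 genes called lower and 0 to 3 called higher. The windows of Gstm1 and Gstm5 share genes, as do those of Gstt1 and Gstt2, so the 9 are not separate. Signal also differed between windows. Most genes around Gstk1 read below 7.66, the median over all probe sets, while 14 of the 20 around Gstz1 remained without dim probe sets. Window medians between Gstz1 and the other members were set side by side with no test of the difference. Neighbouring genes are not independent of each other. The count of falls around Gstz1 was 5 when iPS replicate 1, iPS replicate 2 or else ntES replicate 2 was left out, while 16 or 17 of the 20 stayed below 0 without any 1 array.

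Pomt2, which puts mannose on proteins such as dystroglycan and starts beside Gstz1, read 9.68, 9.70 and 9.51 on the iPS and 8.71, 8.77 and 8.89 on the ntES arrays. The groups did not overlap, and Pomt2 fell by 0.84 ± 0.09 (log2, SE; adjusted p = 0.000311, limma). On the other side Tmed8 lay at -0.05 and did not pass. Beyond it, Noxred1 fell by 0.53, Vipas39, a partner in vacuolar protein sorting, by 0.75, and Ahsa1, which stimulates the ATPase of the chaperone Hsp90, by 0.47. Beyond Pomt2, Ngb, Tmem63c and Zdhhc22 lay at -0.0022, -0.24 and 0.10 and did not pass, and Cipc, an inhibitor of the circadian factor CLOCK, fell by 0.37. Sptlc2, a subunit of serine palmitoyltransferase, lay at -0.30 and did not pass. Cipc and Ahsa1 did not pass without iPS replicate 1 (adjusted p = 0.0762 and 0.145), iPS replicate 2 (0.104 and 0.142) or ntES replicate 2 (0.073 and 0.122), and Cipc did not with the replicate block (0.0673). Tmem63c and Sptlc2 passed without ntES replicate 3 (0.0361 and 0.0207), with array weights (0.000297 and 9.76e-05) and after quantile normalization (0.00124 and 0.00094). Tmem63c also passed after median centring (0.0274) and with a trend and robust priors (0.0265). With array weights Tmed8 and Zdhhc22 passed too (0.0229 and 0.0208).

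The 2 rises in the window of 20 were Gm5039, by 0.74, and Gm5662, by 1.69, which sit side by side at its far end. Gm5662 is the only neighbour of any member that was called with a difference of 1 or more in size. Esrrb, a transcription factor of naive pluripotency, is also in the window and fell by 0.79. These 3 were named after their values were seen.

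**Figure D3:**
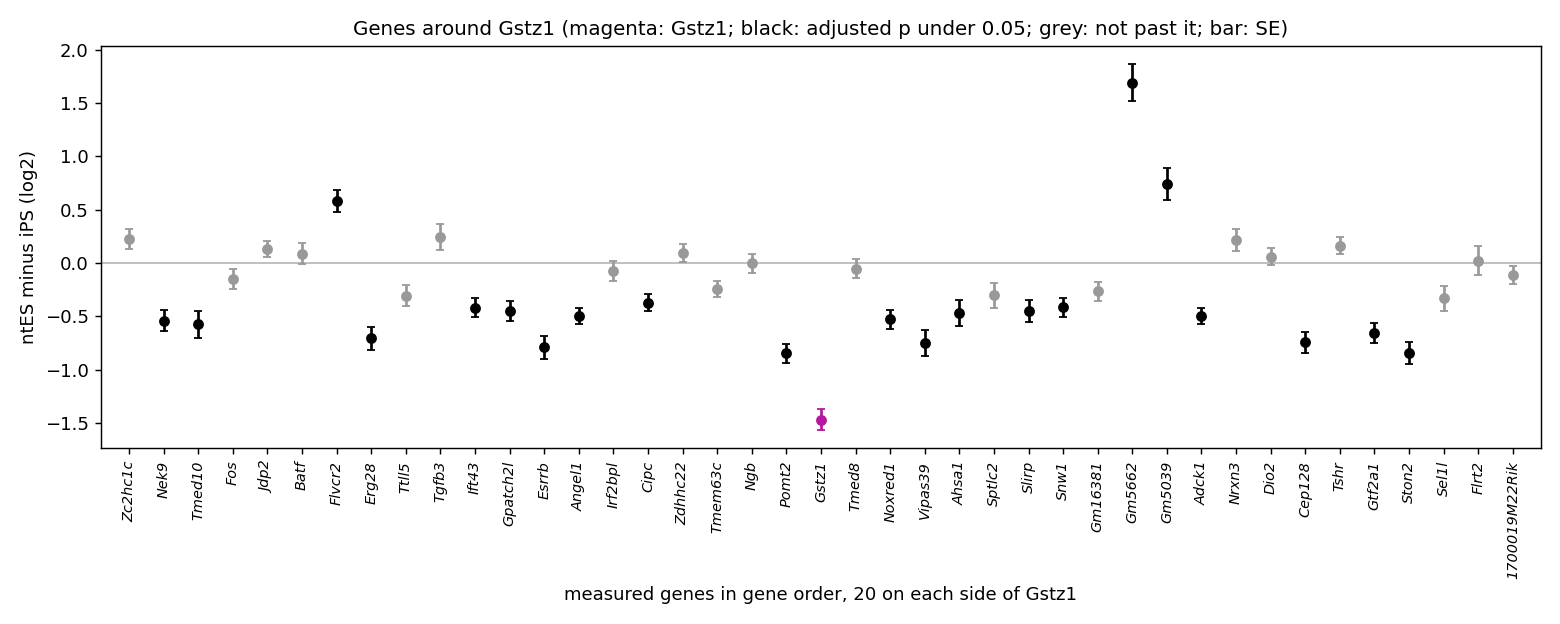
Differences between ntES and iPS cells (log2, vertical axis, bars are SE) for Gstz1 (magenta) and the 20 measured genes on each side in gene order (horizontal axis). Black marks adjusted p under 0.05 by limma and grey the rest. Gstz1 is lowest at -1.47, Pomt2 beside it lies at -0.84, and Gm5662 is highest at 1.69.

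The genes whose profile over the 6 arrays was closest to that of Gstz1 were found by the root mean square difference after each profile was centred on its own mean. They were Coa8 (0.08 log2 units from Gstz1), an assembly factor of cytochrome c oxidase, Prmt8 (0.09), an arginine methyltransferase, C2cd5 (0.10), Rnf213 (0.12) and Ncapg2 (0.13), a condensin subunit. Coa8 and Ncapg2 are on chromosome 12 like Gstz1, Prmt8 and C2cd5 on chromosome 6 and Rnf213 on chromosome 11. Their differences ran from -1.27 for Ncapg2 to -1.49 for C2cd5. The measure rests on 6 arrays in 2 groups. Gstz1 was chosen for its difference between these groups, which makes up most of its centred profile. Its nearest genes therefore had to show similar differences.

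Genes of phenylalanine and tyrosine breakdown, the route in which Gstz1 acts, were taken from a list of 13, of which 12 were measured. Of these 1 fell and none rose by limma, beside 6.16% and 5.25% of all genes, and the median was 0.03 against 0.04. An unadjusted p under 0.05 was found for 3 of the 12, near the 24.6% of all probe sets, so the list's counts lay close to the background. The gene that fell was Fah, fumarylacetoacetase, which splits the product of Gstz1 into fumarate and acetoacetate. Fah averaged 9.65 ± 0.19 on the iPS and 9.19 ± 0.17 on the ntES arrays (log2, SD, n = 3 each), a fall of 0.47 ± 0.12 (SE; adjusted p = 0.0272, limma). Hpd and Hgd, the dioxygenases that act before Gstz1, differed by 0.14 and 0.11 and did not pass, nor did Tat, the tyrosine aminotransferase that opens the route, at 0.15. These 3 probe sets had group means between 6.46 and 7.05, below the median of all probe sets. Fah did not pass without iPS replicate 1 (adjusted p = 0.144), iPS replicate 2 (0.124), ntES replicate 1 (0.051) or ntES replicate 2 (0.139), and 2 genes of the list fell without ntES replicate 3 while 1 rose without iPS replicate 3 or ntES replicate 3.

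Export and trimming of glutathione conjugates came next in the list order. Of 20 measured genes 1 rose and 1 fell, near the 5.25% and 6.16% of all genes. The median was 0.14 against 0.04 over all genes, and 5 of the 20 lay below 0, against 40.1% of all genes. Many of the genes above 0, such as Abcc2, Dpep2 and Ggt6, had group means below 7.66, the median over all probe sets. Background can make up more of the signal there. Others above 0, such as Abcc1, Abcc5 and Anpep, had group means above that median. Abcc5, an efflux pump of organic anions, rose from a mean of 8.33 ± 0.04 in iPS cells to 9.02 ± 0.14 in ntES cells (log2, SD, n = 3 each; adjusted p = 0.00112, limma). Abcc4, another pump of the family, fell by 0.49 (adjusted p = 0.0179). Abcc1, the pump best known for glutathione conjugates, differed by 0.22 and did not pass. Abcc4 did not pass without iPS replicate 1 (adjusted p = 0.102), iPS replicate 2 (0.0911) or ntES replicate 2 (0.0994), and 5 genes of the list rose without ntES replicate 3.

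Of 29 measured NRF2 regulators and targets, 4 rose and none fell by limma, beside 5.25% and 6.16% of all genes, and the median was 0.09 against 0.04. An unadjusted p under 0.05 was found for 8 of the 29, near the 24.6% of all probe sets. Cbr3, a carbonyl reductase, rose by 0.61 (adjusted p = 0.000777), Pgd, phosphogluconate dehydrogenase, by 0.66 (0.00974) and Srxn1, which repairs overoxidised peroxiredoxins, by 0.50 (0.00998), all by limma. Me1, malic enzyme, also rose, by 0.47 (chosen for mention after its values were seen). NRF2 itself, the product of Nfe2l2, and its classical target Nqo1 lay at 0.39 and 0.39 without passing (adjusted p = 0.0513 and 0.0631), and Gclm, a subunit of the enzyme that starts glutathione synthesis, lay at -0.41 (0.0544). Fibroblast and feeder markers were higher in ntES cells as well, and their part in these rises was not tested. The count of rises was 2 without iPS replicate 1 or iPS replicate 2, 1 without ntES replicate 2 and 7 without ntES replicate 1, and 2 genes fell without ntES replicate 3. Pgd did not pass without iPS replicate 1 (adjusted p = 0.0516) or ntES replicate 2 (0.0587), nor Srxn1 without iPS replicate 2 (0.0628) or ntES replicate 2 (0.0695). The call of Me1 ended when iPS replicate 1, 2, 3 or ntES replicate 2 was left out, with adjusted p of 0.0676, 0.0818, 0.0777 and 0.11.

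Of 23 measured detoxication enzymes of other families, 5 rose and 1 fell, beside 5.25% and 6.16% of all genes, with a median of 0.09 against 0.04. Fibroblast and feeder markers, with 9 of 24 higher and a median of 0.27, moved the same way, and their part in these rises was not tested. Cyp1b1, a cytochrome P450 of hydrocarbons and steroids, rose by 0.77 (adjusted p = 0.00358, limma), and Cyp2s1, another cytochrome P450, by 0.69 (0.00287). Ugt8a, which makes galactosylceramide, fell by 0.60 (0.00213). The remaining rises, Cyp26a1, Ephx2 and Aldh7a1 at 0.52, 0.46 and 0.43, were named after their values were seen. The count of rises was 2 when iPS replicate 1, iPS replicate 2 or else ntES replicate 2 was left out and 3 without iPS replicate 3. Cyp26a1, Ephx2 and Aldh7a1 did not pass without iPS replicate 1 (adjusted p = 0.0716, 0.103 and 0.0863), iPS replicate 2 (0.0729, 0.086 and 0.0892) or ntES replicate 2 (0.0606, 0.0971 and 0.117), and Ephx2 and Aldh7a1 did not without iPS replicate 3 (0.0681 and 0.0997). Aldh7a1 also did not pass after median centring, at 0.38 (0.0593).

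**Figure D4:**
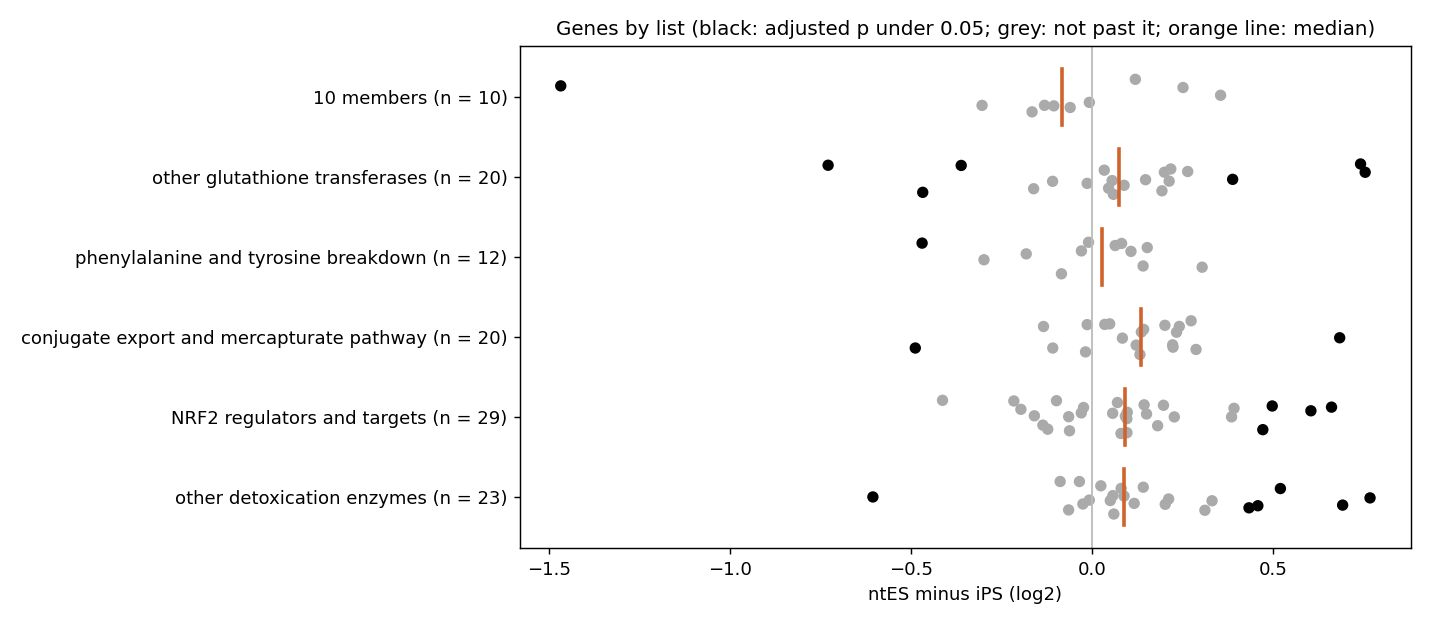
Differences between ntES and iPS cells (log2, horizontal axis) of the 10 members and of 5 gene lists (rows; vertical position within a row is only to separate points). Black marks adjusted p under 0.05 by limma, grey the rest, and the orange line is the median of each row. The row medians lie between -0.08 for the members and 0.14 for conjugate export, and Gstz1 at -1.47 is the point farthest from 0.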

How the data were processed

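The deposited log2 expression values of 6 Affymetrix arrays were used as the authors gave them. The submitters' processing notes name GCOS 1.4, without its role. The log2 scale was read from the values. How background, normalization and probe summaries were handled, and on which build, is not stated in the sources used here. Names came from the platform's annotation, in which 20746 probe sets had 1 gene symbol, 1183 several and 1415 none. A gene with several probe sets was represented by the one of highest mean. The difference, ntES minus iPS, was tested over 23344 probe sets by limma 3.58.1 in R 4.3.3, with lmFit and then eBayes, and Benjamini-Hochberg adjustment, called at 0.05, and tested on simulated data. Groups and replicate numbers came from the sample titles.

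The members and lists were chosen with earlier results of these data known. Named were all members, for each list up to 3 called genes of largest difference (or the 2 of smallest p), the 5 genes on each side of Gstz1, neighbours of other members called with a difference of 1 or more, and the 5 profiles nearest to Gstz1. Other genes were named after their values were seen. Gene order, promoters and motifs came from RefSeq tables of GRCm38.p6, used with Python 3.11.15 and pandas 2.3.3. They held all 10 members for gene order and 8 for promoters. Other settings were array weights (estimated gene by gene, since the default estimate did not converge), quantile normalization, centring on medians, dropping dim probe sets, dropping those lacking 1 symbol, robust priors with a variance trend, a replicate block, a threshold of 0.01, windows of 5 and 20 genes, and leaving out each array. All members had 1 probe set, so averaging probe sets was not needed. The number of arrays limits the precision.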

Additional observations from a re-analysis of the deposited data

How the results depend on the processing

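Gstz1 was called lower under every alternative run, at -1.56 to -1.40 without each array in turn. Its neighbours' median was -0.43 to -0.33 without each array and -0.30 with 20 genes on each side. Of 126 recomputed member differences 123 moved by less than 1 SD between replicates. The exceptions were Mgst3 at 0.19 after median centring and 0.19 after quantile normalization, and Gstt1 at 0.01 with array weights. Dropping probe sets, the robust priors with a trend and the replicate block cannot change a difference. Their part of the 126 was therefore fixed in advance. Leaving out 1 of 3 arrays cannot move a group mean by as much as 1 SD of its values. The outcome of those runs by this measure was therefore fixed as well. Ngb ran from -0.071 to 0.049 without each array.

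Counts below are called higher, then lower, in ntES cells. Over all probe sets they were 7904 and 5243 with array weights, 3339 and 3696 after quantile normalization, 1866 and 1837 with a trend and robust priors, 520 and 630 at an adjusted p under 0.01, 823 and 1911 after median centring against 1212 and 1431 as deposited, and 469 to 2259 and 545 to 2785 without each array. Members numbered 2 and 5 with array weights, 3 and 3 after quantile normalization, 2 and 2 with a trend and robust priors, 1 higher (Gstm1) without dim probe sets, 2 lower (Gstz1 and Gstt2) after median centring, and 0 to 1 and 1 to 1 without each array. With array weights the other transferases had 9 higher, tyrosine breakdown 4 and 4, conjugate export 11 and 2, NRF2 genes 11 and 7, and other detoxication 12 higher. After quantile normalization these lists had 5 higher, 1 and 3, 5 higher, 9 and 1, and 10 higher. With a trend and robust priors, 1 gene of tyrosine breakdown and 4 of conjugate export were higher and 1 NRF2 gene lower. At 0.01, 0 genes of tyrosine breakdown and 0 of conjugate export were lower, and 2 of other detoxication higher. Without dim probe sets 0 of other detoxication were lower, and 1 NRF2 gene was lower there, after median centring, without probe sets lacking 1 symbol and with the replicate block. Without each array the lists had, in the same order, 2 to 5 and 1 to 3, 0 to 1 and 0 to 2, 1 to 5 and 0 to 1, 1 to 7 and 0 to 2, and 2 to 7 and 1 to 1. The causes were not tested.

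With the replicate number as a block, 865 and 1118 probe sets and 0 and 1 members were called. Same-numbered arrays had deviations from the group means correlated at -0.43, -0.10 and -0.72. Between arrays of unlike number the correlations ran from -0.48 to 0.69. The arrays also differed in spread over probe sets, which can enter these correlations, so they cannot decide whether the numbers pair the samples. With 3 arrays a group, the SE of the members' differences ran from 0.077 for Mgst3 to 0.12 for Gstm5. Signal over background was not analysed here.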
